A study of Mus musculus with 16 samples.

Results

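The comparison concerns TCRα chains of all CD8 cells from lymph nodes (LN) of Themis-/- and Themis+/+ mice, taken without a sort on any Vα chain. The question was whether loss of Themis alters the TCR repertoire. The comparison holds 4 of the 16 libraries of the series, chosen by their labels, with 2 libraries per genotype. Themis-/- mice lack Themis through a germline deletion, so every cell of the animal carries the deletion. The mice are Themis-/-Foxp3-GFP and Themis+/+Foxp3-GFP, so both genotypes carry a Foxp3-GFP reporter, on the C57BL/6 background, and the labels state no age. The series text describes each dataset as coming from 1 mouse, whereas the methods describe peripheral LN pooled over several mice of a genotype, so p-values measure the spread between these libraries only. The tables hold no measurement of Themis or of CD8, and the genotypes and the cell type rest on the labels.

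Themis is a T-lineage protein that acts in TCR signaling when CD4+CD8+ thymocytes are selected. The TCRα chain is built in those cells by joining 1 V segment to 1 J segment. On mouse chromosome 14 the V segments lie upstream of the J segments, which are numbered downward toward the constant gene Trac. The first joins tend to use V segments near the J cluster and J segments of high number, and a cell that is not selected can replace its join with one between a more distant V and a J of lower number. Terminal transferase adds untemplated N nucleotides at the junction, which forms the third complementarity-determining region (CDR3). In GRCm38 the annotated J segments run from TRAJ61 at 54155005 to TRAJ1 at 54218814, and Trac starts at 54220521.

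The Themis+/+ libraries held 125483 and 57455 reads and the Themis-/- libraries 66697 and 80850, in 12607, 5753, 4357 and 5416 CDR3 nucleotide sequences. Sequences of 1 read made up 14.8% to 20.4% of a library's sequences. In all 4 libraries many sequences differed from the germline J segment by a T-to-G change in the last 15 bases of the CDR3. Such sequences were 43.5% and 43.4% of the sequences in Themis+/+ and 45.1% and 46.2% in Themis-/-, and they held 28.2% to 32.1% of the reads. For 73.4% to 78.3% of them, the same sequence with T was also present in the library. The source of the T-to-G form was not tested. It adds to the count of distinct sequences, so distinct sequences are given below also after these changes were reverted and identical sequences joined. Chains of innate-like T cells were rare. TRAV11 with TRAJ18, the invariant NKT pair, had 16 and 24 reads in Themis+/+ and 0 and 3 in Themis-/-, where 0 of 66697 reads allows a share of up to 0.0045%. TRAV1 with TRAJ33, the pair of MAIT cells, had 50, 2, 5 and 2 reads. Reads were not counted by molecule, so limits and intervals cover counting error only, and in bulk RNA more cells with a chain and more TCRα RNA per cell cannot be told apart.

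Fewer sequences held the reads of Themis-/- LN than of Themis+/+ LN, but 1 Themis+/+ library lay close to the Themis-/- libraries. The 100 most abundant sequences took 9.51% and 18.5% of the reads in Themis+/+ and 23.6% and 19.6% in Themis-/-. The groups did not overlap, and the mean of Themis-/- was 7.62 points higher with both Themis+/+ libraries and 3.13 points higher without the first. The effective number of sequences, which weights each sequence by its share of reads (the exponential of the Shannon entropy), was 6413 and 2700 in Themis+/+ and 1816 and 2390 in Themis-/-. Without the first Themis+/+ library the log2 ratio of the genotypes moved from -1.12 to -0.36. After reverting the T-to-G changes the effective numbers were 3673, 1597, 1014 and 1274, in the same order of libraries. With 2 libraries per genotype the exact two-sided permutation test of each library value cannot give a p below 0.333, which was its value for both measures.

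Themis-/- libraries also held more sequences with a large share of the reads, a count that depends on how many sequences a library holds. Sequences with at least 0.1% of a library numbered 25 and 119 in Themis+/+ and 196 and 146 in Themis-/-, and held 3.90%, 20.5%, 35.1% and 24.6% of the reads. Sequences under 0.01% held 32.9% and 13.5% of the reads in Themis+/+ and 9.95% and 13.7% in Themis-/-, where the genotypes overlapped. The largest single sequence took 0.536% and 0.533% of a Themis+/+ library and 1.12% and 0.727% of a Themis-/- library. The top sequences that held 50% of the reads were 12.2% and 10.8% of all sequences in Themis+/+ and 8.88% and 9.88% in Themis-/-. The first Themis+/+ library was also the deepest, and thinned to 57455 reads its effective number was 5980, so the distance between the Themis+/+ libraries was present at equal depth.

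**Figure D1:**
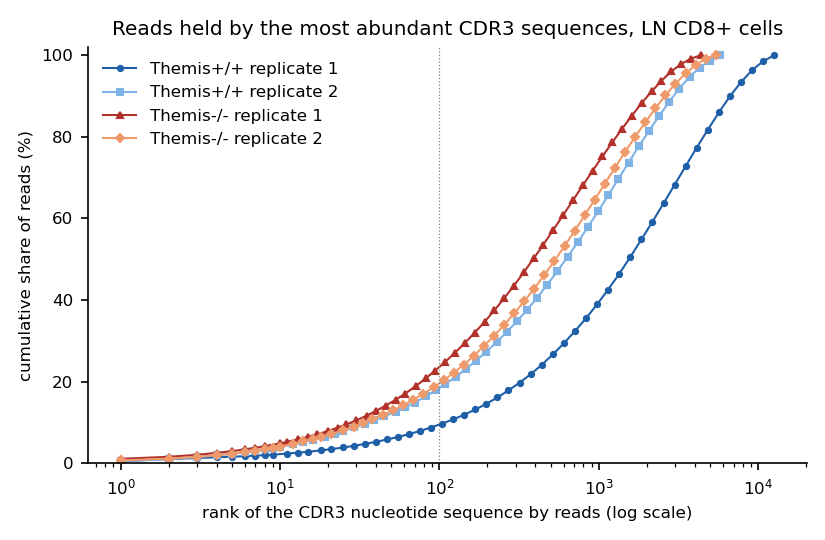
Cumulative share of reads (%) against the rank of a CDR3 nucleotide sequence by its reads (log scale), 1 line per library of LN CD8+ cells; the dotted line marks rank 100. At rank 100 the lines stand at 9.51% and 18.5% for Themis+/+ and at 23.6% and 19.6% for Themis-/-, with the second Themis+/+ library next to the Themis-/- lines.

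Clones among the most abundant of a genotype and, last, 1 of those found in all 4 libraries are printed to show how their junctions differ, with the bases between the V and J parts in capitals and the clone named by its CDR3 peptide.
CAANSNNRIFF: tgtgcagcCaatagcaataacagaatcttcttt
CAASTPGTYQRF: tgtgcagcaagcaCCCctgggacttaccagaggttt
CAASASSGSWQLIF: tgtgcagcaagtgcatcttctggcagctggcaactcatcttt
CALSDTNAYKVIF: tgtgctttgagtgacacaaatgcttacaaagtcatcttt
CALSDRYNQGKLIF: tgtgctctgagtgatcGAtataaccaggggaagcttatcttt
The largest clone of Themis+/+, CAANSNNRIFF (TRAV14-1 with TRAJ31), had 673 reads in the first library and 0 in the other 3. The largest clone of Themis-/-, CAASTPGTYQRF (TRAV10 with TRAJ13), had 747 reads in the first Themis-/- library and 0 elsewhere. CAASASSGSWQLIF, which joins a TRAV14 segment to TRAJ22 with no N base, was instead found in all 4 libraries, with 657 and 233 reads in Themis+/+ and 253 and 588 in Themis-/-. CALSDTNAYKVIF (TRAV12-2 with TRAJ30), also without an N base, had 46 and 0 reads in Themis+/+ and 326 and 55 in Themis-/-. Of the sequences found in all 4 libraries under 1 V and J call, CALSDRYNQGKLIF (TRAV12-3 with TRAJ23) had 48, 47, 63 and 20 reads, with 2 N bases. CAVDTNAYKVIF (TRAV3-3 with TRAJ30) had 3, 71, 140 and 3 reads, and a TRAV16 join to TRAJ22 had 64, 26, 31 and 207, both without an N base. Of the other large Themis+/+ clones, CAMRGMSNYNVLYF (TRAV16 with TRAJ21) had 1, 306, 0 and 1 reads and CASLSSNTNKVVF (TRAV12-2 with TRAJ34) had 0, 302, 0 and 0.

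Most clones were private to a library. Across the 4 libraries 30 nucleotide sequences and 95 amino acid sequences were common to all, the former with 1.23% to 2.32% of a library's reads. Nucleotide sequences seen in either Themis-/- library made up 4.41% of those of Themis+/+, and the shared set was 8.30% of those of Themis-/-. After reverting T-to-G changes, sequences present in at least 1 other library averaged 0.661 to 0.693 N bases, whereas those in no other library averaged 2.03 to 2.30. Among the 100 most abundant sequences, 71 to 82 were in no other library of the 4. Of 179 clones with at least 10 reads in 2 libraries, edgeR called 0 (0% of those tested), 35 had an unadjusted p under 0.05, and DESeq2 called 0. In simulated data the edgeR fit recovered 12 of 25 clones with a log2 change of 2, so changes of this size could be missed. Without the first Themis+/+ library 4 clones were called, each with 0 reads in both Themis+/+ libraries and 10 to 21 in each Themis-/- library, so that they passed the read minimum through Themis-/- alone and their direction was set by it.

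Of 52 V segments tested, 2 were called in Themis-/- LN (3.85%), 1 in each direction (1.92% each). A V segment here joins the N, D and unlettered copies of 1 family member. TRAV9-3, whose TRAV9N-3 copy encodes the Vα3.2 chain, took 0.610% and 1.32% of the reads in Themis+/+ and 3.22% and 2.38% in Themis-/-, so both Themis-/- libraries lay above both Themis+/+ libraries. The log2 fold change was 1.52 (SE 0.46, edgeR adjusted p = 0.031). TRDV2-1, a V segment of the δ locus that can join to TRAJ, had 439 and 235 reads in Themis+/+ and 0 and 4 in Themis-/-. These were 0.350%, 0.409%, 0% and 0.00495% of reads (log2 fold change -7.13, SE 1.79, edgeR adjusted p = 0.0065). TRDV2-1 passed the minimum of 10 reads in 2 libraries through Themis+/+ alone, so its direction was set by that group. With no minimum beyond 1 read it was also called (edgeR adjusted p = 0.010). In GRCm38, TRAV9N-3 is the V gene at chr14:53231433-53232102 and TRAV9D-3 that at chr14:52920443-52921112, while TRDV2-1 is the V gene at chr14:53946073-53946660, close to the J cluster. TRAV9-3 lost its call without either Themis+/+ library (adjusted p = 0.94 and 0.23, with log2 fold changes of 1.05 and 2.12) and without the first Themis-/- library (adjusted p = 0.38). The call of TRDV2-1 was lost without the first Themis-/- library (adjusted p = 0.24), and without either Themis+/+ library it had too few reads to be tested.

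The TRAV9-3 rise was spread over many rearrangements. After reverting T-to-G changes, TRAV9-3 had 91 and 55 sequences in Themis+/+ and 135 and 98 in Themis-/-, which were 1.10% and 1.42% of the sequences of Themis+/+ and 4.77% and 2.87% of those of Themis-/-. In counts of distinct sequences TRAV9-3 was called as deposited (log2 fold change 1.72, edgeR adjusted p = 0.045) but not after reverting (1.57, adjusted p = 0.31). The largest rearrangement held 7.29% and 29.2% of TRAV9-3 reads in Themis+/+ and 7.51% and 7.93% in Themis-/-. The 2 Themis-/- libraries had 6 TRAV9-3 nucleotide sequences in common, of 135 and 98, and the 2 Themis+/+ libraries 3, of 91 and 55. Within TRAV9-3 the J use varied between libraries of 1 genotype: the block from TRAJ9 to TRAJ1 took 6.90% and 34.8% of its reads in Themis+/+ and 30.2% and 15.7% in Themis-/-, where the groups overlapped. The most abundant TRAV9-3 sequences of Themis-/- with a CDR3 of up to 14 residues and the largest of Themis+/+ are printed with the bases between V and J in capitals.
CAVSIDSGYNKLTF: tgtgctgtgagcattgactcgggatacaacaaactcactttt
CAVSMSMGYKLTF: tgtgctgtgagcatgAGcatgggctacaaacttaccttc
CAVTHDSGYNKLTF: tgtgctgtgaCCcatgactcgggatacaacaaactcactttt
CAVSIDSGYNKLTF has 0 bases between the aligned V and J parts, but 3 when these parts end at their first difference from germline. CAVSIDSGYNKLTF had 133 reads and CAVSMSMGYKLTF 105 in the first Themis-/- library, and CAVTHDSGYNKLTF had 221 in the second Themis+/+ library. Each of these 3 sequences had 0 reads in the other 3 libraries, as did a TRAV9-3 join to TRAJ45 with 161 reads in the first Themis-/- library, and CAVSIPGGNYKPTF with 105 and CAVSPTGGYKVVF with 99 in the second Themis+/+ library. The other TRAV9 members showed no separation. TRAV9-4 had 0.943% and 0.270% of reads in Themis+/+ against 0.675% and 0.840% in Themis-/-, TRAV9-2 had 0.759% and 0.327% against 0.447% and 0.406%, and TRAV9-1 had 0.0988% and 0.280% against 0.405% and 0.109%, and for each of them the groups overlapped. In the thymus, TRAV9-3 held 0.862% and 0.698% of the reads in Themis+/+ SP CD8 thymocytes and 0.917% and 0.999% in Themis-/-. The genotype effects of LN and thymus differed by 1.25 on the log2 scale (SE 0.62), which did not pass the test of the difference (edgeR adjusted p = 0.58).

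Several V families next to the J cluster had lower shares in Themis-/- LN, of which TRDV2 passed the test. By family, 1 of 23 was called (4.35%), TRDV2, with 0.603% and 0.547% of reads in Themis+/+ and 0% and 0.0186% in Themis-/- (log2 fold change -5.91, SE 1.75, edgeR adjusted p = 0.034). TRDV2 reached 10 reads in both Themis+/+ libraries but in only the second Themis-/- library, with 15 reads. The call was lost without either Themis+/+ library (adjusted p = 0.86 and 0.97) and without the first Themis-/- library (adjusted p = 0.080). After reverting T-to-G changes it had 48 and 16 sequences in Themis+/+ and 0 and 4 in Themis-/-. In the thymus TRDV2 held 0.285% and 0.515% of reads in Themis+/+ and 0.166% and 0.128% in Themis-/-. TRAV19 had 1.93% and 1.99% of LN reads in Themis+/+ and 0.592% and 1.34% in Themis-/-, a log2 fold change of -1.05 (SE 0.48) that did not pass (edgeR adjusted p = 0.28). TRAV17 and TRAV21 were lower without overlap as well, at 0.893% and 0.350% against 0.285% and 0.252%, and at 0.976% and 0.649% against 0.633% and 0.524%. Other families of this stretch overlapped. TRDV1 had 0.643% and 0.780% in Themis+/+ and 0.193% and 0.967% in Themis-/-, while TRAV18 (0.0135% and 0% against 0% and 0.115%) and TRAV20 (0.0494% and 0.0418% against 0% and 0.153%) had higher means in Themis-/-. All families from TRAV17 to the J cluster together took 5.11% and 4.37% of the reads in Themis+/+ and 1.70% and 3.38% in Themis-/- (exact permutation p = 0.333).

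At the far end of the locus, TRAV2 held 0.286% and 0.228% of reads in Themis+/+ and 0.481% and 0.632% in Themis-/-, without overlap. TRAV1, the most distal segment, held 0.171% and 0.508% against 0.484% and 0.403%, with overlap. Over all families, 5 of 23 were higher without overlap (21.7%) and 4 lower (17.4%). By segment, 6 of 52 were higher (11.5%) and 11 lower (21.2%). The large families of the CD8 repertoire showed no separation. TRAV12 took 18.1% and 20.9% in Themis+/+ and 17.0% and 18.6% in Themis-/-, TRAV6 took 14.8% and 14.4% against 18.5% and 14.8%, and TRAV14 took 11.8% and 8.71% against 8.77% and 10.98%. Within these, TRAV12-1 was 2.90% and 3.16% in Themis+/+ and 2.09% and 2.22% in Themis-/-, and TRAV6-5 was 0.697% and 0.623% against 1.52% and 1.22%, both without overlap and without a call (edgeR adjusted p = 0.80 and 0.69). TRAV8-2 was 1.72% in both Themis+/+ libraries and 2.61% and 2.17% in Themis-/- (edgeR adjusted p = 0.87). At the family level TRAV9 stood at 2.41% and 2.19% against 4.74% and 3.73% (edgeR adjusted p = 0.26), TRAV8 at 3.47% and 4.18% against 4.24% and 5.02%, and TRAV5 at 1.52% and 1.16% against 1.53% and 1.75%. In counts of distinct sequences the TRAV9 family was called (log2 fold change 1.05, edgeR adjusted p = 0.00018). After reverting T-to-G changes it was called as well (0.92, edgeR adjusted p = 0.0021). No family with reads in both Themis+/+ libraries was missing from both Themis-/- libraries, and the libraries held 24, 23, 20 and 24 of the 26 families seen.

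**Figure D2:**
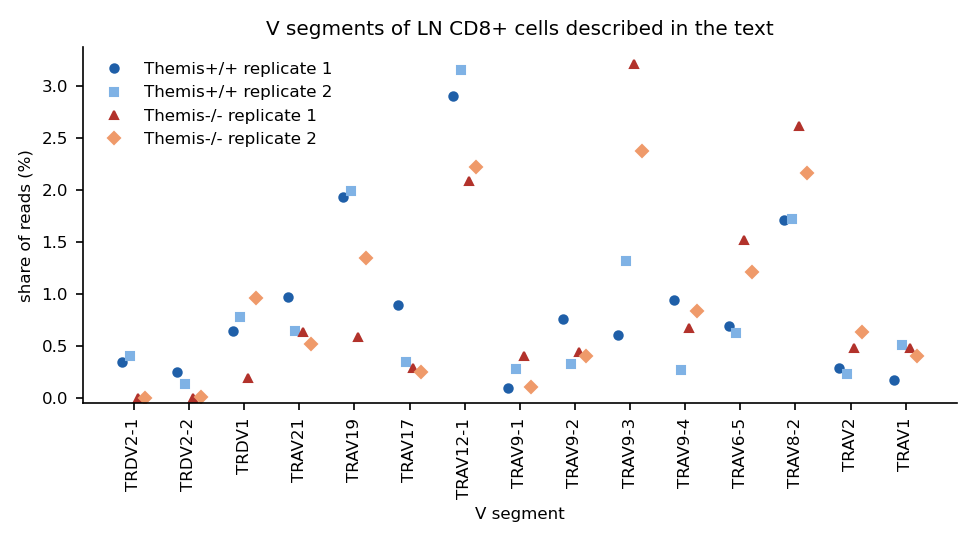
Share of reads (%) of the V segments described in the text, 1 point per library of LN CD8+ cells, with those next to the J cluster at the left (TRDV2-1 to TRAV17), those at the far end of the locus at the right (TRAV2 and TRAV1) and others between. TRDV2-1 is at 0 or near it in Themis-/-, and TRAV9-3 stands at 3.22% and 2.38% there against 0.610% and 1.32% in Themis+/+.

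J segments of low number had larger shares in Themis-/- LN, with 1 segment past the test. Of 43 J segments, 1 was called (2.33%), TRAJ13, which rose in Themis-/- and lies in the part of the cluster toward Trac, at chr14:54205741-54205797 of GRCm38. Its share of reads was 0.897% and 1.64% in Themis+/+ and 4.57% and 2.58% in Themis-/-, without overlap. The log2 fold change was 1.57 (SE 0.40, edgeR adjusted p = 0.0077). The TRAV10 clone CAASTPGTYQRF made up 24.5% of the TRAJ13 reads of the first Themis-/- library, and TRAJ13 was still called when the most abundant sequence of each segment in each library was left out (log2 fold change 1.41, adjusted p = 0.035). The call was lost without the first Themis+/+ library (log2 fold change 1.18, adjusted p = 0.94) and without the first Themis-/- library (log2 fold change 1.001, adjusted p = 0.54). It was also lost when distinct sequences were counted in place of reads (log2 fold change 0.99, adjusted p = 0.22) and when all 8 libraries of LN and thymus were fitted together (adjusted p = 0.058). TRAJ13 sequences used 14 and 13 V families in Themis+/+ and 11 and 12 in Themis-/-. In the thymus TRAJ13 had 1.71% and 1.24% of reads in Themis+/+ and 2.56% and 2.33% in Themis-/-.

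The J segments were also counted by their place in the cluster, where many overlapped between the genotypes. Of the 13 tested segments from TRAJ18 to TRAJ2, 7 were higher in Themis-/- without overlap, 0 lower and 6 overlapping, whereas over all 43 segments 10 were higher (23.3%) and 11 lower (25.6%). Of the 17 segments from TRAJ58 to TRAJ37, 1 was higher, 7 were lower and 9 overlapped. The median log2 fold change was -0.30 over these 17 segments, 0.01 over all 43 and 0.64 over the 13 segments of low number. Without the first Themis+/+ library the median of the 13 was 0.16, with 8 fitted higher and 5 lower, and that of the 17 was -0.19. The latter was -0.50 without the second Themis+/+ library and -0.65 without the first Themis-/- library. TRAJ7 held 0.844% and 1.82% of reads in Themis+/+ and 2.24% and 3.42% in Themis-/- (edgeR adjusted p = 0.11). TRAJ9 held 2.22% and 2.73% against 4.89% and 3.805% (edgeR adjusted p = 0.11). On the other side, TRAJ45 held 3.41% and 3.31% against 2.81% and 1.06%, TRAJ56 1.75% and 1.81% against 1.09% and 1.10%, and TRAJ39 2.65% and 3.12% against 2.08% and 1.54%, each with an edgeR adjusted p of 0.52. TRAJ53, a smaller segment named after its value was seen, had the lowest fold change. It held 1.23% and 1.03% against 0.162% and 0.485% (log2 fold change -1.79, SE 0.64, edgeR adjusted p = 0.11). Without the most abundant sequence of each segment TRAJ53 was called (edgeR adjusted p = 0.046). Distinct sequences as deposited gave 0 called J segments. When distinct sequences were counted after reverting T-to-G changes, an alternative chosen after the data were seen, 8 J segments passed: TRAJ13, TRAJ9, TRAJ7, TRAJ18, TRAJ12 and TRAJ4 rose, and TRAJ45 and TRAJ49 fell.

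The mean J number, weighted by reads, was 32.0 and 29.3 in Themis+/+ and 28.1 and 27.4 in Themis-/-, a difference of -2.94 (exact permutation p = 0.333). Without the first Themis+/+ library the difference was -1.58. In the thymus the same mean was 28.4 and 33.4 in Themis+/+ and 26.1 and 26.5 in Themis-/-. The first Themis+/+ library stood apart in J use: the block TRAJ19-10 took 10.05% of its reads, against 16.02% in the second Themis+/+ library and 17.7% and 16.4% in Themis-/-. TRAJ9-1 took 4.89% and 8.52% in Themis+/+ and 10.003% and 12.1% in Themis-/-. At the V side, TRAJ47-37 took 21.2% and 18.5% against 16.1% and 15.4%. Of 44 J segments and 52 V segments tested for a genotype effect that differed between LN and thymus, edgeR called 0 of each (0%), with 1 J segment and 4 V segments at an unadjusted p under 0.05. DESeq2 called 0 J segments and 1 V segment, TRDV2-1, named after its value was seen, whose fall was larger in LN (adjusted p = 0.016).

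**Figure D3:**
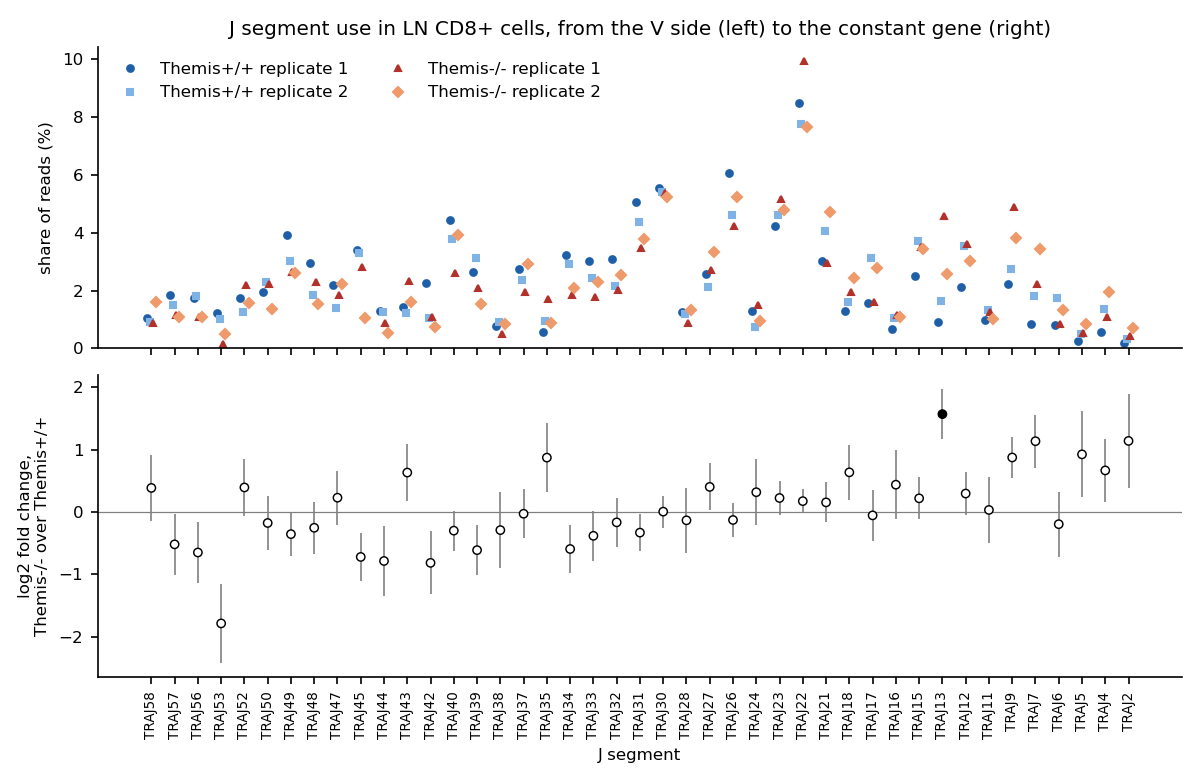
Top, share of reads (%) of each tested J segment in the 4 libraries of LN CD8+ cells; bottom, log2 fold change of Themis-/- over Themis+/+ with its SE, filled where the edgeR adjusted p is under 0.05. TRAJ13 is the filled point, and most segments to its right lie above 0 while most from TRAJ58 to TRAJ37 lie below.

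The places of V and J segments were less coupled in Themis-/- LN. Over distinct sequences, Spearman's correlation coefficient between the rank of a V family along the locus and the J number was 0.158 and 0.156 in Themis+/+ and 0.0839 and 0.0943 in Themis-/-. Families were ranked by the median start of their genes, and families of several copies interleave. In GRCm38 TRAV6 genes lie from 52638515 to 53710419 and TRAV3 genes from 52580665 to 53777576, so such a family has no single place. The coefficient is given as a description, since sequences of a library share V families and T-to-G forms, and the exact permutation p over the 4 library values was 0.333. The Themis+/+ libraries, which differed in their mean J number, had nearly the same coefficient over the sequences as deposited. After reverting T-to-G changes it was 0.167 and 0.151 in Themis+/+ and 0.0714 and 0.0975 in Themis-/-. Weighted by reads it was 0.123 and 0.128 against 0.0106 and 0.0667. In the thymus it was 0.130 and 0.175 against 0.0926 and 0.0995. Of 19 V families with at least 10 sequences in each library, 13 were joined to a lower mean J number in Themis-/- without overlap (68.4%) and 1 to a higher one (5.26%). Over all sequences, each counted once, the mean J number was 32.3 and 29.3 in Themis+/+ and 26.9 and 27.7 in Themis-/-. The count of families does not separate this shift from a change in coupling. TRAV12 sequences averaged J numbers of 30.5 and 27.4 in Themis+/+ and 25.9 and 25.9 in Themis-/-, TRAV3 averaged 31.9 and 28.2 against 26.9 and 24.6, and TRAV13 averaged 32.4 and 31.5 against 29.2 and 28.01. TRAV21, next to the J cluster, was the exception, with 47.3 and 44.5 against 51.4 and 51.6 over 29 and 31 Themis-/- sequences. The families from TRAV17 to the J cluster averaged 47.3, 47.2, 45.3 and 46.97, far above the 26.5 to 31.4 of the families between them and TRAV2. Their share of sequences was 5.70% and 5.02% in Themis+/+ and 2.27% and 3.55% in Themis-/-. The part of this lower share in the coefficient was not tested.

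**Figure D4:**
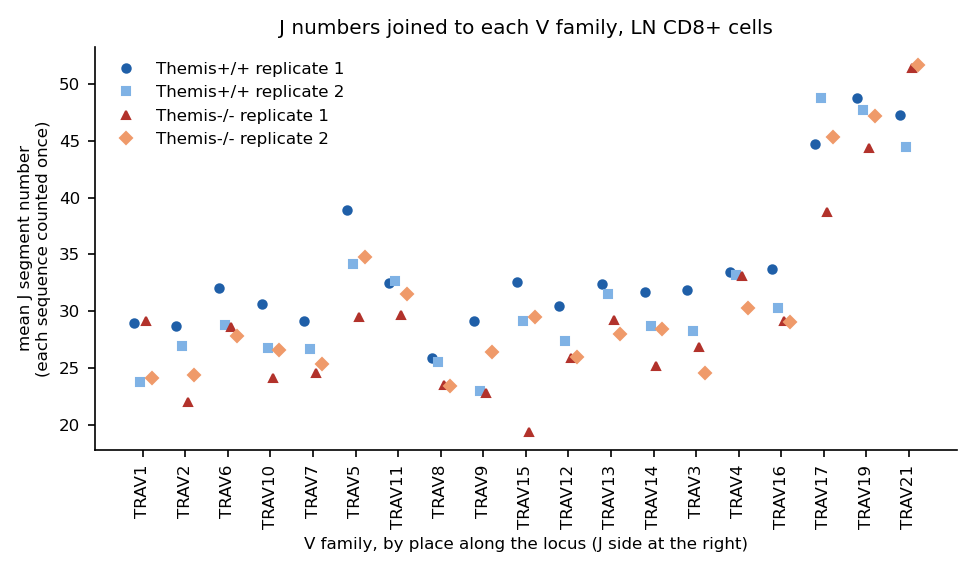
Mean J segment number, each CDR3 sequence counted once, for 19 V families, 1 point per library of LN CD8+ cells. Families are ordered by the median start of their genes along the locus, with the J side at the right. TRAV17, TRAV19 and TRAV21 at the right stand between 38.8 and 51.6, and in 13 families both Themis-/- points lie below both Themis+/+ points.

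No pair of a V family and a J block was called in the main edgeR fit, whereas DESeq2 called a few. edgeR called 0 of 110 pairs (0%), with 6 at an unadjusted p under 0.05, and DESeq2 called 4. Without overlap, 19 pairs were higher in Themis-/- (17.3%) and 22 lower (20%). TRAV3 with TRAJ47-37 held 2.82% and 2.97% of reads in Themis+/+ and 0.774% and 1.20% in Themis-/-, a log2 fold change of -1.55 (SE 0.41, edgeR adjusted p = 0.17, DESeq2 adjusted p = 0.0019). In other settings edgeR called this pair too, as with distinct sequences (edgeR adjusted p = 0.024) and all 8 libraries of LN and thymus (edgeR adjusted p = 0.027). It was not called with the replicate block or with any 1 library left out. After reverting T-to-G changes it had 195 and 87 sequences against 27 and 42. TRAV13 with TRAJ36-29 held 1.82% and 1.46% against 1.16% and 0.711%, and TRAV14 with TRAJ61-48 held 1.75% and 1.396% against 1.07% and 0.743%. In the other direction, TRAV12 with TRAJ9-1 held 0.881% and 1.75% against 1.91% and 2.92%, TRAV3 with TRAJ9-1 held 0.485% and 1.11% against 1.21% and 1.57%, and TRAV13 with TRAJ19-10 held 0.678% and 1.03% against 1.16% and 1.23%. The other pairs that DESeq2 called were TRDV2 with TRAJ61-48 and with TRAJ47-37, both lower, and TRAV15 with TRAJ9-1, which was higher. The last had 43 and 10 reads in Themis+/+ and 234 and 449 in Themis-/-, and the largest rearrangement held 63.2% and 91.1% of them in the Themis-/- libraries after reverting T-to-G changes.

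Themis-/- junctions carried fewer N nucleotides, counted as the bases between the V and J parts of the authors' alignment. The mean per sequence was 2.05 and 2.09 in Themis+/+ and 1.85 and 1.81 in Themis-/-, and the difference of -0.24 exceeded the SD of either group (0.028 and 0.026; exact permutation p = 0.333). Sequences with 0 N bases made up 33.3% and 33.4% in Themis+/+ and 35.2% and 37.3% in Themis-/-. Sequences with at least 6 made up 6.91% and 6.52% against 5.05% and 4.52%. At an equal mix of V families and J blocks the means were 2.02, 2.09, 1.86 and 1.82. Sequences whose V and J parts matched germline apart from the T-to-G changes were 65.9% and 66.1% in Themis+/+ and 61.03% and 62.8% in Themis-/-, without overlap. The part of this difference in the N count over all sequences was not tested. Among the matching sequences the means were 2.52 and 2.55 in Themis+/+ and 2.31 and 2.31 in Themis-/-, a difference of -0.23. In this subset 18.6% and 19.9% of Themis+/+ sequences had 0 N bases, against 21.1% and 20.3% in Themis-/-. The genotypes differed there by 1.38 points, and by 2.95 points over all sequences. In the thymus the means were 2.10 and 2.15 in Themis+/+ and 2.00 and 1.92 in Themis-/-. G made up 40.6% and 40.5% of the N bases in Themis+/+ LN and 37.5% and 38.3% in Themis-/-. When the V and J parts were ended at their first difference from germline, the order turned, with 5.46 and 5.70 bases in Themis+/+ and 6.38 and 6.08 in Themis-/-; under this count any base error inside a segment adds to N.

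**Figure D5:**
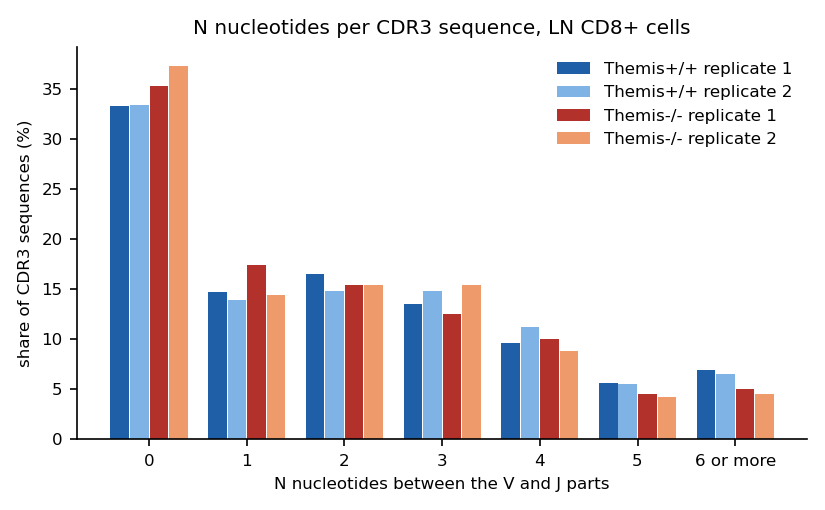
Share of CDR3 nucleotide sequences (%) by the number of N bases between the V and J parts, 1 bar per library of LN CD8+ cells. The bars of Themis-/- are higher at 0 N bases (35.2% and 37.3% against 33.3% and 33.4%) and lower at 5 and at 6 or more.

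The CDR3 was slightly shorter in Themis-/-, with means of 40.8 and 40.7 nucleotides in Themis+/+ and 40.5 and 40.5 in Themis-/-, a difference of -0.23. Summed Kyte-Doolittle hydropathicity without the first 3 and last 3 residues was -11.8 and -11.4 in Themis+/+ and -10.9 and -11.3 in Themis-/-, and -11.5, -11.3, -10.7 and -11.1 after reverting T-to-G changes. Without the first Themis+/+ library its difference moved from 0.46 to 0.27, and without the first libraries of both genotypes to 0.06. Net charge was 0.329 and 0.396 against 0.437 and 0.407, a difference of 0.059, which was 0.026 without the first Themis+/+ library. Weighted by reads it was 0.355 and 0.446 against 0.439 and 0.416, where the genotypes overlapped. Over the same inner residues, 8 of 20 amino acids had higher shares in Themis-/- without overlap (40%) and 7 lower (35%). Serine was 14.7% and 14.95% in Themis+/+ and 15.5% and 15.5% in Themis-/-, tyrosine 7.06% and 7.31% against 7.72% and 7.60%, and glycine 16.6% and 16.8% against 17.4% and 16.8%. Asparagine was 14.4% and 13.8% against 12.6% and 13.8%, glutamate 3.62% and 3.11% against 3.03% and 2.82%, and alanine 6.58% and 6.71% against 6.45% and 6.14%. The second libraries of the genotypes nearly tied for glycine (16.83% and 16.84%) and for asparagine (13.82% and 13.81%). Much of the inner CDR3 is encoded by the J segment, and the part of J use in these shares was not tested.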

How the data were processed

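TCRα cDNA of LN and thymus CD8 cells was made by template switching, amplified from the constant region and read on a MiSeq. The authors extracted clones with MiXCR (no version is stated in the methods or labels) and deposited tables that list a library's CDR3 nucleotide sequences, each with a read count without normalization and its fraction of the library's reads; the submitters' processing notes name CASAVA 1.4 and mm9. The deposited tables give no coordinates, and those printed come from GENCODE M21 on GRCm38. No unique molecular identifiers are described. Of the running clone numbers of LN libraries, 13.9% to 15.8% are missing, for a reason the methods and labels do not state.

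The LN comparison used 4 libraries and 4 thymus libraries served for comparison; the 8 libraries of sorted Vα3.2+ cells were not used here. The members and lists were chosen with earlier results of these data known. The best V and J hits were taken, the first listed where tied, and N, D and unlettered V copies were joined. Reads per V family, V segment, J segment, pair and clone were tested with edgeR 4.0.16 (quasi-likelihood, TMM, features with at least 10 reads in 2 libraries, Benjamini-Hochberg adjusted p under 0.05) in R 4.3.3, with DESeq2 1.42.0 as an alternative. SEs are the fold change over the root of the F statistic. Library values were compared with exact two-sided permutation tests in Python 3.11.15 with numpy 2.4.6, pandas 2.3.3 and scipy 1.17.1. J blocks were TRAJ61-48, TRAJ47-37, TRAJ36-29, TRAJ28-20, TRAJ19-10 and TRAJ9-1. The edgeR fits were tested on simulated data with log2 changes of 2, at set dispersions of 0.05 for V segments and pairs and 0.1 for clones. They recovered 10 of 10 changed V segments, 22 of 22 pairs and 12 of 25 clones, with 0, 2 and 0 false calls. Named features are, per test and direction, up to 6 called without overlap of the genotypes, filled to 3 by the largest fold changes among features of at least 1% mean share without overlap; TRAV9-3, TRAV14, TRAV6, TRAV12 and the 2 invariant pairs were always named, with the most abundant clones. Other features described were chosen after their values were seen. Reversion of T-to-G changes, other counts of N and crossed replicate numbers were added after the data were seen. Replicate numbers in the labels were not treated as a pairing.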

Additional observations from a re-analysis of the deposited data

How the results depend on the processing

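The 9 library values were recomputed 96 times in all, each under several settings, and 95 kept their direction; the exception was the mean N count by exact germline match, which turned to 0.65. Leaving out 1 library, or both libraries of 1 number, gave differences of 1.12 to 14.1 points for the share of the 100 most abundant sequences, log2 ratios of -1.82 to -0.18 for the effective number, -0.28 to -0.20 for mean N, 1.92 to 3.99 points for sequences without N, -0.31 to -0.15 for length, 0.059 to 0.87 for hydropathicity, 0.0108 to 0.108 for charge, -0.074 to -0.062 for coupling and -4.29 to -1.58 for the mean J number. Counts of calls were small and moved. Leaving out 1 library gave 0 to 1 J segments, 0 to 1 V families, 0 to 8 V segments, 0 pairs and 0 to 4 clones; the 8 V segments came without the second Themis-/- library. The replicate block gave 0 J segments, 0 V families, 0 V segments and 0 pairs; deviations of same-numbered libraries from their group means correlated at 0.21 for J segments, -0.40 for V segments and -0.42 for V families, and whether a number pairs libraries is not given in the labels. With the numbers crossed the block gave 0 J segments, 0 V families, 0 V segments and 3 pairs. All 8 libraries of LN and thymus gave 0 J segments and 3 pairs, and DESeq2 gave 4 pairs and, for the difference between LN and thymus, 1 V segment. Distinct sequences gave 0 J segments, 2 V families, 1 V segment and 4 pairs, and after reverting T-to-G changes 8, 3, 0 and 5. Without the most abundant sequence of each feature there were 2 J segments, 2 V families and 2 pairs, and with V copies kept apart 1 V segment. The cause of these moves was not tested. With 2 libraries per genotype, features below 10 reads in most libraries were beyond the test.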
